A study of Homo sapiens with 3 samples.

Results

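The hypoxia response and glycolysis genes are a list of 44 human genes, made up of 23 targets and regulators of the hypoxia-inducible factor (HIF) and 21 genes of glucose uptake, glycolysis and lactate dehydrogenase. They were chosen by name, with no limit set on any measured value. All 44 were found among the 29689 gene symbols of the deposited RNAseq table.

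The study grew xenograft tumors of SUM-149, a human triple-negative breast cancer (TNBC) cell line, in female Nu/Nu mice, and asked how the tumor transcriptome differs after inhibition of the kinase CDK2 or of the histone methyltransferase EZH2. Cells mixed with an equal part of Matrigel were placed in the mammary fat pad, and the 3 tumors analysed here had vehicle, the CDK2 inhibitor dinaciclib (CDK2i) for 10 days, or the EZH2 inhibitor EPZ6438 (EZH2i) for 10 days. Each condition is 1 library of 1 cell line, so no difference below has a replicate check and no p-value or SD was computed. EPZ6438 is named by the label, and the methods for animals name it too, but a legend on SUM-149 xenografts names GSK343, so some doubt remains about the drug behind the EZH2i library. Nude mice lack mature T cells and keep other immune cells, vessels and stroma, whose mouse RNA was in the tissue that was sequenced.

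HIF is a transcription factor of a regulated alpha subunit and a constant partner. With oxygen present, prolyl hydroxylases of the EGLN family mark the alpha subunit for destruction, and without it the stable factor switches on genes for glucose uptake and glycolysis, acid export, vessel growth, matrix crosslinking and its own feedback inhibitors. In solid tumors this program is known from poorly perfused regions, and many glycolytic genes are also driven by growth signals where oxygen is present.

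Values are log2 FPKM, the log2 of fragments per kilobase of transcript, scaled to the size of the library, and a difference of 1 on this scale is a 2-fold change. A gene was called in a comparison when it differed by more than 2-fold and reached over log2 FPKM 3 in the tumor where it was higher, with no p cutoff. The libraries held 16.8 to 19.1 M fragments (M, the mega prefix) as estimated from the smallest steps of the values. Of the 44 genes, 41 were above the minimum in at least 1 tumor. ALDOC, PDK3 and SLC2A3 were below it in all 3, and LOX and KDM3A passed it only through the EZH2i tumor. From about 29 fragments for ALDOC and 48099 for ENO1 in the vehicle tumor, the 95% intervals of the differences had median half-widths of 0.07 to 0.09 on the log2 scale and reached 0.73. These intervals cover counting error only and leave out the differences between tumors.

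The tissue label of carcinoma was met in that all 10 listed basal-like markers were expressed, among them KRT5, KRT14 and TP63. EPCAM is also among the 10, though the paper describes it as low in basal-like tumors and high in luminal ones. No list of luminal markers was examined. The summed FPKM of the 10 was 7270 with vehicle, 17300 with CDK2i and 7300 with EZH2i, and 6 of the 10 were called higher in CDK2i. Markers of the other cell types were low, with 1 of 7 macrophage, 4 of 10 fibroblast, 0 of 8 endothelial, 2 of 10 skeletal muscle and 1 of 5 adipocyte markers in the table expressed. Macrophage markers summed to 8.52, 8.37 and 3.75 FPKM, of which CD14 alone made up 8.02, 7.95 and 3.15 FPKM. CD68 and AIF1 were near 0 already in vehicle (0.0318 and 0.151 FPKM) and listed at 0 in both treated tumors. EMR1 was higher in both, at 0.114, 0.234 and 0.164 FPKM. Endothelial markers summed to 1.10, 1.66 and 1.07 FPKM, with EMCN listed at 0 in all 3. Fibroblast markers summed to 27.3, 43.1 and 38.7 FPKM, skeletal muscle markers to 15.6, 21.2 and 6.15 FPKM, and adipocyte markers to 34.9, 20.1 and 7.07 FPKM. FABP4 made up 32.6, 18.6 and 3.03 FPKM of the adipocyte sums. Red cell markers summed to at most 0.258 FPKM. Host cells were mouse and these rows are human genes of reads mapped to hg19, so they are not a measure of the stroma. The part of these marker differences in the results below was not tested. In bulk tissue, fewer cells that express a gene and less RNA per cell cannot be told apart.

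Letters of the HIF binding motif were searched in the 250 bases before the start of each gene in the RefSeq promoter table (GRCh38.p14), which matched 40 of the 44 genes. VEGFA, BNIP3L, NDRG1 and SLC2A3 had no match. The sequences of DDIT4, PFKFB4 and ENO2, the genes called against vehicle, and of CA9, a standard marker of hypoxic tumor cells chosen after its values were seen, are given here to show where ACGTG and GCGTG lie. Each is written in the direction of its gene and ends at the base before the start, with the motif in capitals.
DDIT4: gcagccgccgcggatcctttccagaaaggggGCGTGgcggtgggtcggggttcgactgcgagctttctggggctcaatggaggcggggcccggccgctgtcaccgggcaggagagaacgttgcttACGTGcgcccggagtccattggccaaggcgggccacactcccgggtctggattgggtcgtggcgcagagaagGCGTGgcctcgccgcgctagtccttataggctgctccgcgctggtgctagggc
PFKFB4: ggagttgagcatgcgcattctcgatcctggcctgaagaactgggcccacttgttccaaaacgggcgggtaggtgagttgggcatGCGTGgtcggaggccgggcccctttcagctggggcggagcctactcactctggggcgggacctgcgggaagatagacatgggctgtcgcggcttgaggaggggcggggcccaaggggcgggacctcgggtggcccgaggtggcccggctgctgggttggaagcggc
ENO2: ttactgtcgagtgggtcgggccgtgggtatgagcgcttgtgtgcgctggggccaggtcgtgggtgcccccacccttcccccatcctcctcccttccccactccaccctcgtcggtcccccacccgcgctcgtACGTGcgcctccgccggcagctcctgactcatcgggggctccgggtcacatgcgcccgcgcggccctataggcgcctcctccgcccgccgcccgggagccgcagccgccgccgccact
CA9: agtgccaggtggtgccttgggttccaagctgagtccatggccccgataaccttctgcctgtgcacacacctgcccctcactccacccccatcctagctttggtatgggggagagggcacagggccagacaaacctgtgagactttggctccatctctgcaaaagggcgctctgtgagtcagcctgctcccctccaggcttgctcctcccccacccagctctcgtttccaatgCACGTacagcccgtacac

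The DDIT4 window (chr10:72273674-72273923, plus strand) held GCGTG beginning 219 and 53 bases before the start and ACGTG beginning 125 bases before it. The PFKFB4 window (chr3:48556804-48557053, minus strand) held GCGTG 166 bases before the start, and the ENO2 window (chr12:6914330-6914579, plus strand) held ACGTG 118 bases before it. In CA9 (chr9:35673678-35673927, plus strand) the capitals CACGT are ACGTG read on the other strand, 18 bases before the start. On either strand, ACGTG was in 18 of the 40 matched genes (45.0%) and in 18.7% of all 27305 promoters of the table. GCGTG was in 16 genes (40.0%) against 31.9% of all promoters, and at least 1 of the 2 motifs in 27 genes (67.5%) against 43.1%. The palindrome CACGTG holds ACGTG on both strands, as in the ANKRD37, GAPDH, BNIP3 and LDHA windows. A match of letters is a description and not a site of binding.

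In the CDK2i tumor most of the genes were higher than in the vehicle tumor, by less than 2-fold. Of the 44, 40 were higher (90.9%), while 41.9% of the 11109 expressed genes were (mean log2 FPKM above 1, no value listed at 0). Their median difference was 0.50, against −0.11 over the expressed genes, whose 5th to 95th percentile ran from −1.40 to 0.80. DDIT4 was the 1 gene called higher and PFKFB4 the 1 called lower, out of 39 that could be called. Among all genes that could be called, 3.27% were higher and 8.07% lower by this rule. Of all calls 28.9% were higher, and 53.6% at an expression minimum of log2 FPKM 5. At 1.5-fold, 14 of the 39 were higher (35.9%), against 10.5% of all such genes, and 1 was lower, against 18.8%. The summed basal-like markers were higher in the same tumor, and their part in these differences was not tested.

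In the EZH2i tumor the genes split. Of the 44, 21 were above the vehicle tumor and 23 below, while 61.5% of expressed genes were above it, and the median difference was −0.01 against 0.19 over expressed genes (5th to 95th percentile −0.96 to 1.23). ENO2 was called lower, out of 41 genes that could be called, and 0 were called higher. Among all genes that could be called, 4.42% were lower and 8.93% higher. Of all calls 66.9% were higher, and 37.8% at an expression minimum of log2 FPKM 5. At 1.5-fold, 8 of the 41 were lower (19.5%), against 12.1% of all such genes, and 3 were higher, against 24.5%.

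The comparison of the inhibitor-treated tumors with each other held the most calls. Relative to CDK2i, 12 of 41 genes were called lower in EZH2i (29.3%) and HIF1A was called higher, while 6.53% of all genes that could be called were lower and 17.5% higher. The direction of calls over the whole table depended on level. At an expression minimum of log2 FPKM 5, 36.0% of all calls were higher in EZH2i, against 72.9% at the minimum of 3. At that higher minimum 10 of the 44 genes were called lower and 1 higher. At 1.5-fold, 21 of the 41 were lower (51.2%) and 3 higher, against 14.3% and 33.4% of all such genes. Of the 44 genes, 9 were higher in EZH2i than in CDK2i, while 66.9% of expressed genes were, and the median difference was −0.60 against 0.35. Of the 10 basal-like markers, 5 were called lower in EZH2i than in CDK2i and 0 higher, with a median difference of −0.63, and their part in these differences was not tested. Both comparisons with vehicle share the vehicle library, and the comparison of the inhibitors shares a treated library with each.

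**Figure D1:**
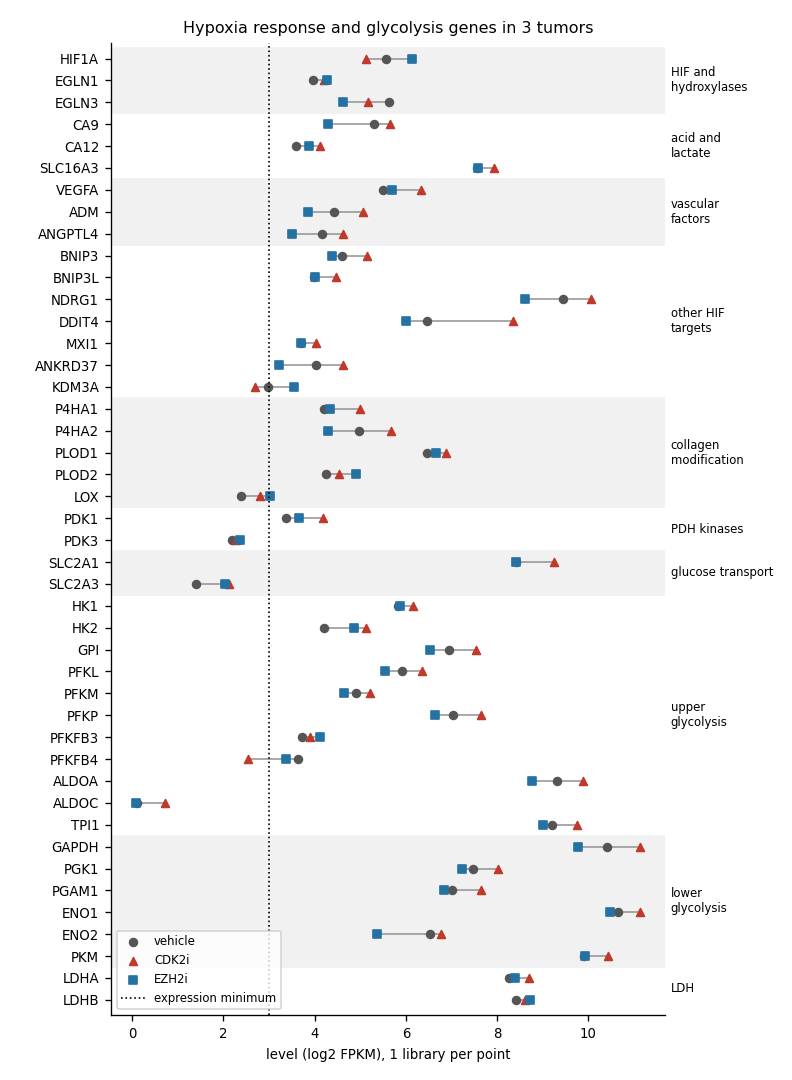
Level of each of the 44 genes (log2 FPKM, horizontal axis) in the vehicle, CDK2i and EZH2i tumors, 1 library per point, grouped by role, with a dotted line at the expression minimum of 3. In 21 genes the deposited values ran from low to high in the order EZH2i, vehicle, CDK2i, as in 14.3% of expressed genes. With equal summed FPKM some of the 21, such as TPI1 and ENO1, had EZH2i above vehicle.

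The levels fell in 6 orders. EZH2i was lowest and CDK2i highest in 21 genes, and in 14.3% of expressed genes. In 13 genes vehicle was lowest and CDK2i highest, and in 6 genes vehicle was lowest and EZH2i highest. Vehicle was lowest in 27.6% of expressed genes. HIF1A and KDM3A had CDK2i lowest and EZH2i highest, the most frequent pattern among expressed genes (33.8%). EGLN3 and PFKFB4 were highest in vehicle, as were 24.2% of expressed genes. All 3 comparisons share libraries, so these orders are a description of 3 tumors. The place of EZH2i relative to vehicle depended on the scaling, with 11 of the 44 genes above vehicle after centring and 27 with equal summed FPKM. Not all neighbors in these orders are apart. The counting interval of the EZH2i difference from vehicle reached 0 for SLC2A1, MXI1, SLC16A3, HK1 and BNIP3L, among others.

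HIF1A, the gene of the regulated HIF subunit, lies on chromosome 14 of GRCh37 (62162231 to 62214977). It was at 47.0 FPKM in vehicle, 34.8 FPKM in CDK2i and 70.4 FPKM in EZH2i. HIF1A thus stood highest in EZH2i, as did KDM3A, EGLN1, PLOD2, LOX, PDK3, PFKFB3 and LDHB. CA9, ADM and ENO2 were among the genes lowest there. The HIF1A difference of EZH2i from vehicle lay at percentile 73.1 of expressed genes, and with the GC and length trend removed it was −0.07. The log2 difference was −0.43 in CDK2i (counting interval −0.51 to −0.36) and 0.58 in EZH2i (0.52 to 0.65), and it was 1.02 between EZH2i and CDK2i, a call by a margin of 0.02. HIF activity is set mainly by protein stability, which was not measured here. Exons of other genes on either strand, HIF1A-AS1 and HIF1A-AS3 among them, cover 11.3% of all annotated exon bases of HIF1A. Use of strand in the counting is not given in the sources used here.

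The oxygen-sensing hydroxylases differed in direction as deposited. With the GC and length trend removed, EGLN1 and EGLN3 were both below vehicle in EZH2i, with log2 differences of −0.17 and −1.31. EGLN3, itself a HIF target, was at 49.0 FPKM in vehicle, 36.1 FPKM in CDK2i and 24.6 FPKM in EZH2i, and its difference of −0.99 in EZH2i lay just short of a call. EGLN1, the main hydroxylase of normal oxygen, was at 15.7, 18.4 and 19.5 FPKM, with exons of another gene over 55.8% of its annotated exon bases. EGLN3 therefore exceeded EGLN1 3.13-fold in vehicle, 1.96-fold in CDK2i and 1.26-fold in EZH2i. Such a ratio within a library does not depend on scaling between libraries, though it can move with the GC and length trend. With that trend removed, an alternative chosen after seeing the data, the log2 ratio of EGLN1 to EGLN3 was higher than in vehicle by 0.63 in CDK2i and 1.14 in EZH2i, against 0.67 and 1.31 as deposited.

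Acid and lactate handling was led in level by SLC16A3, the lactate exporter MCT4, at 187 FPKM in vehicle, 245 FPKM in CDK2i and 190 FPKM in EZH2i. CA9, a membrane carbonic anhydrase, was at 39.3 FPKM in vehicle, 50.6 FPKM in CDK2i and 19.8 FPKM in EZH2i. CA9 was thus highest in CDK2i and lowest in EZH2i, where it was 1.99-fold lower than in vehicle, just short of a call, and 2.56-fold lower than in CDK2i, which was called. CA12, the related enzyme, was at 12.1, 17.3 and 14.8 FPKM, and no difference of CA12 was called. The ratio of CA9 to CA12 was 3.26 in vehicle, 2.93 in CDK2i and 1.34 in EZH2i. The shift of this ratio in EZH2i against vehicle was −1.28 on the log2 scale as deposited and −0.43 with the GC and length trend removed. Exons of the neighbor ARHGEF39 overlap 35.7% of the annotated exon bases of CA9, so some of its reads could belong to either gene.

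Of the secreted vascular factors, VEGFA, the main angiogenic growth factor, was at 45.3 FPKM in vehicle, 80.3 FPKM in CDK2i and 51.9 FPKM in EZH2i. It was highest in CDK2i with a log2 difference of 0.83 and not called. ADM, the vasodilator peptide adrenomedullin, was at 21.4, 33.3 and 14.4 FPKM. ANGPTL4, an inhibitor of lipoprotein lipase that acts on vessels, was at 17.9, 24.7 and 11.4 FPKM. ADM and ANGPTL4 shared the order EZH2i, vehicle, CDK2i, and both were called lower in EZH2i than in CDK2i, 2.31-fold and 2.16-fold.

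DDIT4 encodes REDD1, a stress-induced inhibitor of mTOR signaling, on chromosome 10 of GRCh37 (74033678 to 74035794). It was at 88.0 FPKM in vehicle, 323 FPKM in CDK2i and 64.0 FPKM in EZH2i. CDK2i alone was high, 3.68-fold above vehicle, a log2 difference of 1.88 (counting interval 1.82 to 1.94) that lay at percentile 99.4 of expressed genes. EZH2i was 5.05-fold below CDK2i, the largest of the 132 differences of the 44 genes.

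NDRG1, a stress-responsive gene and the most abundant of the 23 hypoxia genes, was at 698 FPKM in vehicle, 1060 FPKM in CDK2i and 394 FPKM in EZH2i. The tumors were spread on both sides of vehicle, with EZH2i 2.68-fold below CDK2i, which was called. ANKRD37, a small ankyrin repeat gene known as a HIF target, was at 16.4, 24.7 and 9.37 FPKM from about 216, 371 and 129 fragments. It was 2.64-fold lower in EZH2i than in CDK2i and called, with 40.3% of its annotated exon bases overlapped by exons of UFSP2.

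The mitophagy receptors BNIP3 and BNIP3L were at 24.1, 35.6 and 21.0 FPKM and at 15.9, 22.1 and 16.3 FPKM in vehicle, CDK2i and EZH2i. Both were highest in CDK2i, by log2 differences of 0.56 and 0.48, and neither was called. BNIP3 has 44 annotated pseudogenes that could share its reads. MXI1, an antagonist of MYC, was at 13.0, 16.5 and 13.0 FPKM. KDM3A, a histone demethylase induced by hypoxia, was at 7.91, 6.50 and 11.8 FPKM, lowest in CDK2i as HIF1A was, and its log2 difference of 0.86 between EZH2i and CDK2i was not called.

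Among the genes of collagen modification, the prolyl hydroxylase subunits P4HA1 and P4HA2 parted in EZH2i. P4HA2 was at 31.5 FPKM in vehicle, 50.8 FPKM in CDK2i and 19.8 FPKM in EZH2i, and was called 2.57-fold lower in EZH2i than in CDK2i. P4HA1 was at 18.3, 32.0 and 20.2 FPKM. The level of P4HA1 relative to P4HA2 went from 0.582 in vehicle and 0.630 in CDK2i to 1.02 in EZH2i.

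The lysyl hydroxylases PLOD1 and PLOD2 and the crosslinking enzyme LOX were above vehicle in both treated tumors as deposited, and in EZH2i their differences came to −0.01, −0.01 and −0.09 at the lowest setting tried. PLOD1 was at 87.8, 117 and 102 FPKM, highest in CDK2i. PLOD2 was at 19.1, 23.0 and 30.1 FPKM and LOX at 5.23, 7.01 and 8.17 FPKM, both highest in EZH2i. Their log2 differences of 0.66 and 0.64 in EZH2i were past 1.5-fold and were not called.

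PDK1, a kinase that inhibits pyruvate dehydrogenase and so keeps pyruvate out of the mitochondria, was at 10.4 FPKM in vehicle, 18.3 FPKM in CDK2i and 12.6 FPKM in EZH2i. PDK3, a related kinase below the expression minimum, was at 4.56, 4.84 and 5.17 FPKM, and the counting intervals of all its differences held 0. The ratio of PDK1 to PDK3 was 2.27 in vehicle, 3.78 in CDK2i and 2.44 in EZH2i. The EZH2i values turned with the GC and length trend removed, where the log2 difference of PDK1 from vehicle went from 0.28 to −0.62 and the shift of the ratio from 0.10 to −0.61. In CDK2i the shift of the ratio was 0.73 as deposited and 0.44 with the trend removed.

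**Figure D2:**
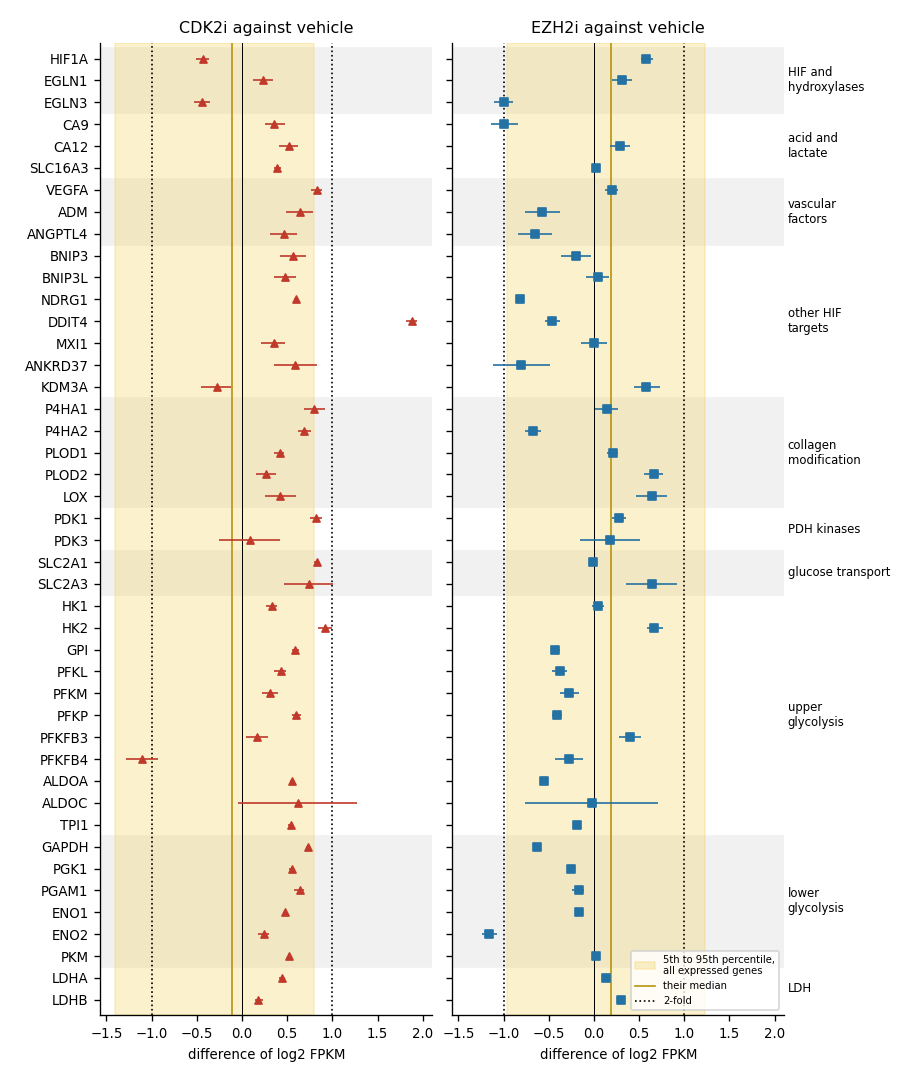
Difference of log2 FPKM from the vehicle tumor for the CDK2i (left) and EZH2i (right) tumors, with bars for the 95% counting interval, which does not cover differences between tumors. Shading marks the 5th to 95th percentile of 11109 expressed genes, the line in it their median and dotted lines the 2-fold limits, past which lie DDIT4 and PFKFB4 on the left and ENO2 on the right.

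SLC2A1, the glucose transporter GLUT1, was at 343 FPKM in vehicle, 608 FPKM in CDK2i and 342 FPKM in EZH2i. As deposited, vehicle and EZH2i thus did not differ beyond counting error and CDK2i stood 1.77-fold higher. Over the scalings and other settings tried, the log2 difference of SLC2A1 in EZH2i from vehicle ran from −0.22 to 0.24. SLC2A3, the transporter GLUT3, was at 2.63, 4.39 and 4.10 FPKM, below the expression minimum, and the ratio of SLC2A1 to SLC2A3 was 130 in vehicle, 138 in CDK2i and 83.4 in EZH2i. Nearly all transporter RNA of this pair thus came from SLC2A1 in every tumor.

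The hexokinases, which trap glucose in the cell, were higher in both treated tumors, with HK1 in EZH2i at −0.17 after centring. HK2, the inducible form, was at 18.4 FPKM in vehicle, 34.8 FPKM in CDK2i and 29.3 FPKM in EZH2i, and its log2 difference of 0.92 in CDK2i was the highest among those of the 44 genes not called there. HK1, the general form, was at 56.5, 71.0 and 58.3 FPKM. The ratio of HK1 to HK2 fell by 0.59 on a log2 scale with CDK2i and dropped by 0.63 with EZH2i, from 3.07 in vehicle to 2.04 and 1.99.

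The enzymes of the next steps ran in the order EZH2i, vehicle, CDK2i as deposited, with TPI1 in EZH2i at 0.05 relative to vehicle once summed FPKM was made equal and ALDOC within counting error. GPI, the phosphoglucose isomerase, was at 123 FPKM in vehicle, 185 FPKM in CDK2i and 91.5 FPKM in EZH2i, and PFKP, the platelet-type phosphofructokinase, at 132, 200 and 99.2 FPKM. Both were called lower in EZH2i than in CDK2i by small margins, with log2 differences of −1.015 and −1.009. The other phosphofructokinases PFKL and PFKM were at 60.7, 81.5 and 46.7 FPKM and at 29.9, 37.1 and 24.8 FPKM, and were not called. ALDOA, the main aldolase, was at 635, 933 and 433 FPKM and was called 2.16-fold lower in EZH2i than in CDK2i. Exons of other genes lie over 54.2% of its annotated exon bases. ALDOC was at 1.08, 1.66 and 1.07 FPKM, below the minimum. TPI1, the triosephosphate isomerase, was at 591, 860 and 517 FPKM.

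The regulators PFKFB3 and PFKFB4, which set the level of the main activator of phosphofructokinase, parted from the enzymes. PFKFB4 (chromosome 3 of GRCh37, 48555117 to 48599448) was at 12.5 FPKM in vehicle, 5.80 FPKM in CDK2i and 10.3 FPKM in EZH2i. CDK2i alone was low, 2.15-fold below vehicle (log2 difference −1.11, counting interval −1.28 to −0.93), in the tumor where every other glucose gene was above vehicle. PFKFB3 was at 13.1, 14.8 and 17.3 FPKM. The ratio of PFKFB3 to PFKFB4 was 1.05 in vehicle, 2.55 in CDK2i and 1.68 in EZH2i.

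Of the lower glycolysis genes, GAPDH was at 1350 FPKM in vehicle, 2250 FPKM in CDK2i and 874 FPKM in EZH2i, and was called 2.57-fold lower in EZH2i than in CDK2i. GAPDH is often taken as a reference gene, and it has 65 annotated pseudogenes that could share its reads. PGK1, the first enzyme here to make ATP, was at 178, 260 and 149 FPKM, and PGAM1, a mutase with 13 pseudogenes, at 129, 201 and 115 FPKM. Both had the order EZH2i, vehicle, CDK2i, in which PGAM1 in EZH2i came to 0.07 above vehicle with equal summed FPKM, and neither was called.

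The enolases differed from each other. ENO2, the neuronal enolase that hypoxia induces, lies on chromosome 12 of GRCh37 (7022909 to 7032861) and was at 92.2 FPKM in vehicle, 109 FPKM in CDK2i and 41.3 FPKM in EZH2i. EZH2i alone was low, 2.23-fold below vehicle (log2 difference −1.16, counting interval −1.24 to −1.07) and 2.64-fold below CDK2i, both called. ENO1, the general enolase and the most abundant of the 44 genes in vehicle, was at 1610, 2240 and 1430 FPKM. The ratio of ENO1 to ENO2 was 17.4 in vehicle, 20.6 in CDK2i and 34.6 in EZH2i.

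PKM, the pyruvate kinase, was at 962 FPKM in vehicle, 1380 FPKM in CDK2i and 978 FPKM in EZH2i, and the table does not part its splice forms. LDHA, which turns pyruvate into lactate, was at 307, 416 and 335 FPKM. LDHB, the form of the reverse reaction, was at 343, 389 and 423 FPKM, with 33.4% of its annotated exon bases under exons of other genes. None of the 3 was called. LDHA was thus highest in CDK2i and LDHB in EZH2i, and their ratio was 0.895 in vehicle, 1.07 in CDK2i and 0.793 in EZH2i.

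**Figure D3:**
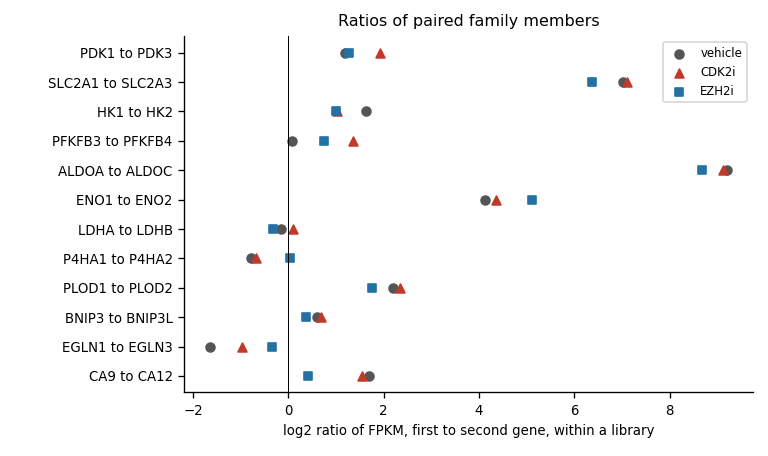
Log2 ratio of FPKM within each library for 12 pairs of related genes (first to second named), 1 point per tumor. EGLN1 to EGLN3, CA9 to CA12, ENO1 to ENO2 and P4HA1 to P4HA2 have the EZH2i tumor apart from vehicle, while PDK1 to PDK3 and PFKFB3 to PFKFB4 have CDK2i farthest from it. With the GC and length trend removed (not plotted), the EZH2i shift of CA9 to CA12 is −0.43 in place of −1.28 and that of PDK1 to PDK3 is −0.61 in place of 0.10.

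Removing the GC and length trend turned the sign of the EZH2i shift against vehicle for 2 more pairs, PLOD1 to PLOD2 (from −0.45 to 0.32) and BNIP3 to BNIP3L (from −0.23 to 0.17). It took the EZH2i shift of HK1 to HK2 from −0.63 to −0.35, of SLC2A1 to SLC2A3 from −0.64 to −0.32 and of LDHA to LDHB from −0.17 to −0.42. The EZH2i shifts of ENO1 to ENO2 and P4HA1 to P4HA2 were 0.99 and 0.81 as deposited and 1.10 and 0.85 with the trend removed. The shift of PFKFB3 to PFKFB4 in CDK2i was 1.28 as deposited and 1.26 with the trend removed.

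As a share of all summed FPKM, the 44 genes took 1.77% in vehicle, 2.91% in CDK2i and 1.77% in EZH2i. The 6 lower glycolysis genes made up 0.903%, 1.49% and 0.886%. Ribosomal protein genes took 15.4%, 8.68% and 8.33% in the same tumors, so shares of other genes rest on a changed total, and the summed FPKM itself was 479000, 432000 and 405000.

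**Figure D4:**
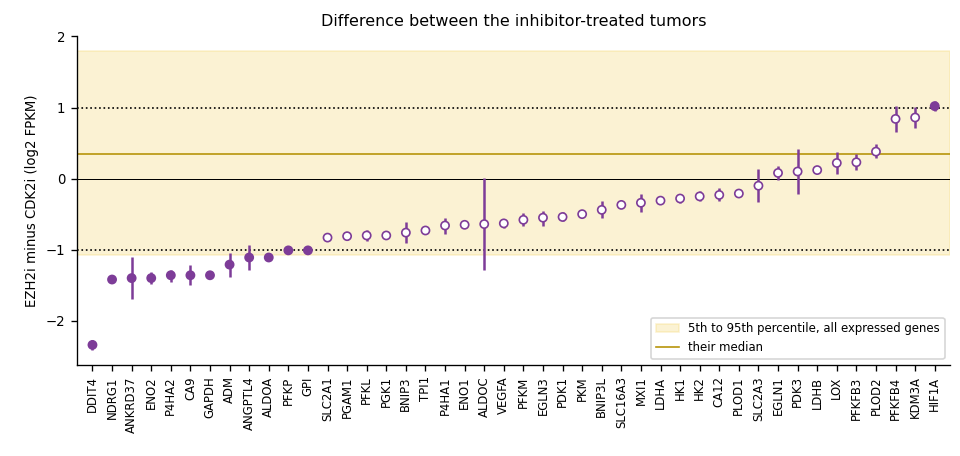
Difference EZH2i minus CDK2i (log2 FPKM) for the 44 genes in rising order, with 95% counting intervals. Filled points are called, shading marks the 5th to 95th percentile of expressed genes and the line in it their median of 0.35, and 35 of the 44 points lie below 0.

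The 12 genes called lower in EZH2i than in CDK2i came from several roles, with 7 of the hypoxia genes (CA9, ADM, ANGPTL4, NDRG1, DDIT4, ANKRD37, P4HA2) and 5 glycolysis genes (GPI, PFKP, ALDOA, GAPDH, ENO2). Of the 11 with a matched promoter, 8 held ACGTG (72.7%, against 18.7% of all promoters) and 2 held GCGTG (18.2%, against 31.9%). This is a description of a list picked by its values. Over the deposited values and 6 other scalings and pseudocounts, 8 of the 12 were called in all 7 and ANGPTL4, GPI, PFKP and ALDOA in 5. HIF1A was called in 4 of the 7, and its difference ran from 0.22 to 1.20. Against vehicle, DDIT4 was called in 7 of 7, ENO2 in 6 and PFKFB4 in 3, the last with differences of −1.25 to −0.94.

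Scaling between the libraries bears on every count here, since each alternative but the pseudocounts moved the median of expressed genes by over 0.1 in at least 1 comparison. In CDK2i this median was −0.11 as deposited, 0.06 after centring each library on its median gene, 0.04 with equal summed FPKM and −0.26 when sums were equalized leaving out ribosomal protein and mitochondrial genes, and in EZH2i it was 0.19, −0.02, 0.43 and 0.23. With centring, 21 of the 44 genes were called lower in EZH2i than in CDK2i and 0 higher, and 33.3% of all calls in the table were higher, against 72.9% with the deposited scaling. Against vehicle, centring left DDIT4 and HK2 called higher in CDK2i, with 48.5% of all calls higher against 28.9%. In EZH2i it left 5 genes called lower (EGLN3, CA9, NDRG1, ANKRD37, ENO2), with 35.6% of all calls higher against 66.9%. With equal summed FPKM, DDIT4 and HK2 were called in CDK2i and no gene in EZH2i, and 46.8% and 88.7% of all calls were higher. With those genes left out of the equalized sums, 17.5% of all calls were higher in CDK2i and 84.1% in EZH2i relative to CDK2i.

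**Figure D5:**
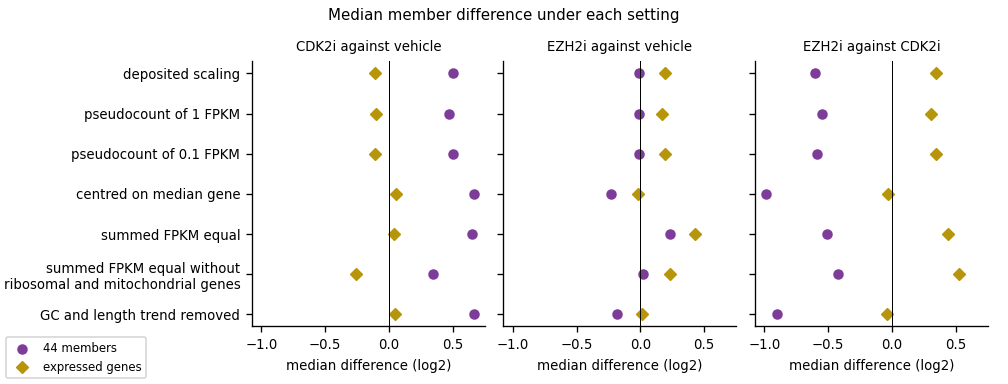
Median difference (log2) of the 44 genes (circles) and of expressed genes (diamonds) in each comparison under the deposited scaling, 2 pseudocounts, 3 other scalings and removal of a GC and length trend. The circles lie right of the diamonds in CDK2i and left of them in EZH2i and between the inhibitors under every setting plotted. The 3 other scalings move circles and diamonds together and could not change this.

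The position of the 44 genes relative to the expressed genes kept its side under every setting plotted. The 3 scalings shift all genes of a library by the same amount, so they could not change this side. Only the pseudocounts and the trend removal could have done so. In CDK2i their median was 0.35 to 0.67, and in EZH2i relative to CDK2i it was −0.99 to −0.42. In EZH2i against vehicle it ran from −0.23 to 0.23 and had no fixed sign. The EZH2i difference ran with GC content and transcript length, with Spearman correlations of −0.581 and 0.489 over 10203 expressed genes of this table and −0.476 and 0.528 over the 44, a description of genes within the same libraries. In CDK2i these were 0.0344 and 0.0936 over expressed genes. The 44 genes had a median GC content of 52.0% and a transcript length of 2941 bases, against 49.8% and 3092. With the trend removed, 3 genes were called lower in EZH2i than in vehicle (EGLN3, P4HA2, ENO2), 4 higher in CDK2i (VEGFA, DDIT4, SLC2A1, HK2) and 21 lower in EZH2i than in CDK2i. Of all calls, 47.2% were then higher in CDK2i, 41.6% in EZH2i and 49.4% between the inhibitors.

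Among the regulators of HIF outside the list, EPAS1, the gene of HIF-2 alpha, was at 19.6 FPKM in vehicle, 25.8 FPKM in CDK2i and 30.3 FPKM in EZH2i and was not called. None of these 14 genes was called against vehicle, where only 6 could be called in CDK2i and 9 in EZH2i. Among all genes that could be called, 3.27% were higher and 8.07% lower in CDK2i, and 8.93% and 4.42% in EZH2i. Between the inhibitors 9 of the 14 could be called, and 2 were called higher and 1 lower, against 17.5% and 6.53% of all such genes. Between the inhibitors EP300, a coactivator, and CUL2, a scaffold of the ligase that removes HIF, were called higher in EZH2i by 1.36 and 1.14, and TCEB2, an adaptor of that ligase, was called lower with a log2 difference of −1.04.

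Of 38 other hypoxia targets in the table, 3 were called higher and 1 lower in CDK2i, of 22 that could be called, and the median of the 31 expressed was −0.04. The shares over all genes that could be called were 3.27% higher and 8.07% lower in CDK2i, and 8.93% and 4.42% in EZH2i. Among the called genes were BHLHE40, a transcription repressor (58.7, 205 and 41.0 FPKM in vehicle, CDK2i and EZH2i), ERO1L, an oxidase of the endoplasmic reticulum (23.9, 49.6 and 35.1 FPKM), and the microRNA gene hsa-mir-210. BHLHE40 had the order of DDIT4, with a log2 difference of −2.32 between EZH2i and CDK2i that was called. MIR210HG was also called lower between the inhibitors, at −1.12. These were 2 lower and 0 higher of 21 that could be called, against 6.53% and 17.5% of all such genes. In EZH2i hsa-mir-210 and MIR210HG were called lower and 1 gene higher, of 21 that could be called, with a median of −0.02. The median of this wider list was near 0 in both comparisons, unlike the 0.50 of the 44 genes in CDK2i.

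The microRNA miR-210 is a standard HIF target that lowers mitochondrial respiration. The row hsa-mir-210 was at 46.0 FPKM in vehicle, 9.97 FPKM in CDK2i and 5.19 FPKM in EZH2i, called lower in both treated tumors. Its hairpin has only 110 bases, and no counting interval was computed for this row, so its counting error is not given. It was highest in vehicle, unlike most of the 44 genes. A long-RNA library reads the precursor and not the mature microRNA. The row MIR210HG, the host transcript, was at 38.3, 27.6 and 12.7 FPKM, a log2 difference of −0.47 in CDK2i, which was not called, and of −1.59 in EZH2i, which was. The mature arms from RefSeq (GRCh38.p14, chromosome 11, minus strand), with the seed of bases 2 to 8 in capitals, are given to identify the row.
hsa-miR-210-3p: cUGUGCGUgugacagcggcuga
hsa-miR-210-5p: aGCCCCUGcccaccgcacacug

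Neighboring routes of glucose had no call against vehicle, though not all of their genes could be called. In CDK2i and EZH2i these were 9 and 10 of the other glycolysis genes and 5 and 6 of the pyruvate entry genes. All 7 pentose phosphate genes could be called. Of 27 other glycolysis genes and isoforms in the table, 12 were expressed, with a median of 0.20 in CDK2i and 0.43 in EZH2i. Between the inhibitors ADPGK, a hexokinase that uses ADP, and C12orf5 (TIGAR), a phosphatase that slows glycolysis, were called higher in EZH2i by 1.07 and 1.23, and FBP1, a gluconeogenic phosphatase, was called lower with a log2 difference of −1.97. These were 2 higher and 1 lower of 11 that could be called, against 17.5% and 6.53% of all such genes. Of 12 genes for pyruvate entry into the mitochondria, PDP1, the phosphatase that opposes the PDK kinases, was called higher in EZH2i than in CDK2i by 1.97, from 2.47 to 9.69 FPKM. PDP1 was the 1 called of 6 that could be called, against the same 17.5% of all such genes. The 7 genes of the pentose phosphate pathway were all expressed and had medians of 0.20 in CDK2i, −0.19 in EZH2i and −0.36 between the inhibitors, and none was called.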

How the data were processed

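RNAseq was done by a commercial service on total RNA of 3 xenograft tumors, 1 library per condition. The authors deposited log2 FPKM per gene symbol in 1 table, whose 3 columns were assigned by their labels (0 columns were left unassigned). The submitters' processing notes name CASAVA, STAR and the build hg19 without versions. The program that computed FPKM, its gene lengths and any filter of mouse reads are not given in the sources used here. A value of −9 was taken as an FPKM of 0.

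Differences of log2 FPKM were computed with Python 3.11.15 and pandas 2.3.3. A gene was called past fold 2 with the higher value above log2 FPKM 3. The p cutoff of the study was not applied, since 1 library per condition leaves no residual. Fragments per gene, for the 95% counting intervals, were estimated from the smallest steps of the values (16.8, 19.1 and 17.5 M fragments for vehicle, CDK2i and EZH2i) and from transcript lengths of GENCODE 44 on GRCh37. That annotation matched 20344 symbols, 1492 of them through an older name, and 92.6% of expressed genes. The GC and length trend was a polynomial of degree 3 over 10203 genes. Alternatives were expression minimums, fold thresholds, pseudocounts of 1 and 0.1 FPKM, 3 scalings and the trend. The trend removal for ratios of paired genes was added after seeing the data. The call rule and the trend removal were tested on simulated data.

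All 44 genes are named. Of the other lists, every gene called in at least 1 comparison is named, along with hsa-mir-210 and EPAS1, except markers of cell types, which are given as lists, and 1 gene that is not reported here. Promoters were to be shown for the 4 genes of the list called against vehicle with the largest mean change, of which there were 3, and CA9 was added after its values were seen. The genes and lists were chosen with earlier results of these data known. FPKM is relative to all fragments of a library, so a large change of abundant genes shifts the rest.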

Additional observations from a re-analysis of the deposited data

How the results depend on the processing

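Each condition has 1 library, so leaving out a library was not possible, and no interval here covers the difference between tumors of the same condition. No paired analysis was possible because the groups share only 1 replicate number. In CDK2i against vehicle, 2 genes were called. The count was 1 with an expression minimum of log2 FPKM 5, 1 with a fold threshold of 3, 1 with a pseudocount of 1 FPKM, 15 with a fold threshold of 1.5 and 4 with the GC and length trend removed. The median difference of 0.50 was 0.67 with centring of each library on its median gene, 0.65 with equal summed FPKM, 0.35 with sums equalized leaving out ribosomal protein and mitochondrial genes, and 0.67 with the trend removed. In EZH2i against vehicle, 1 gene was called. The count was 11 with a fold threshold of 1.5, 0 with a fold threshold of 3, 5 with centring, 0 with equal summed FPKM and 3 with the trend removed. The median of −0.01 was −0.23 with centring and −0.18 with the trend removed, and it reversed to 0.23 with equal summed FPKM and to 0.02 with sums equalized leaving out ribosomal protein and mitochondrial genes. In EZH2i against CDK2i, 13 genes were called. The count was 24 with a fold threshold of 1.5, 1 with a fold threshold of 3, 21 with centring and 21 with the trend removed. The median of −0.60 was −0.99 with centring, −0.42 with sums equalized leaving out ribosomal protein and mitochondrial genes and −0.90 with the trend removed. Of the 132 differences of single genes, the sign differed from the deposited one in 22 with the trend removed, 16 with centring, 7 with equal summed FPKM, 5 with the second equal sum and 1 with each pseudocount. The cause of these shifts was not tested beyond the rescaling itself.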
